A study of Macaca fascicularis and Mus musculus with 492 samples.

Results

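The data are single cells of postimplantation cynomolgus monkey (Macaca fascicularis) embryos, and the cells described are a block of 18 that stand together in the order of deposit. They directly follow the first 32 embryo samples and end before the embryonic day falls back from E17 to E16. The block holds 18 of the 390 monkey embryo cells of the series: 2 cells of embryonic day 13 (E13), 10 of E14, 4 of E16 and 2 of E17. They were set against 57 E13 and E14 cells deposited from the title E13_MS10T34 onward, 28 of E13 and 29 of E14. All cells are untreated and no genotype is labelled. Per the labels, the embryonic part of each implantation site, which held epiblast, amnion, hypoblast and yolk sac endoderm together, was taken by hand and broken up with trypsin, so a cell's lineage is not known from the dissection. RNA was read by SC3-seq, which amplifies the cDNA of 1 cell and counts its 3-prime ends. The labels name no embryos and no cell types. Each title carries a code (MS08, MS09, MS10, MS11, MS13 or MS61) whose meaning the labels do not state.

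At gastrulation, cells of the epiblast, the pluripotent layer that forms the embryo proper, move through the primitive streak and become mesoderm and definitive endoderm. BMP, WNT and NODAL signals turn on the streak regulators, among them T (Brachyury), EOMES, MIXL1, EVX1 and LHX1. Cells that leave the epiblast give up epithelial adhesion in an epithelial to mesenchymal transition. In primates these events take place beside the amnion and the extraembryonic mesenchyme, whose cells share some regulators with the streak.

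Levels are means of log2(RPM + 1), where RPM is the authors' depth-scaled read unit, and a difference is the mean of the block minus the mean of the comparison cells on this log2 scale. Block cells held 1093465 to 3154129 recovered reads (median 2085688) and 9977 to 12562 detected genes, and comparison cells 293673 to 3666835 reads (median 1887083). Cells of 1 day are not independent animals, and the deposit order may itself follow the expression of these genes, so the differences are given without a test. The day and the title code move with the side: 9 of the 10 E14 cells of the block have the code MS13, against 3 of the 29 E14 comparison cells. Values within a day and a code are therefore given beside the results, and the part of the code in the differences was not tested.

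The block carried primitive streak RNA in most but not all of its cells. T, the T-box factor of streak and nascent mesoderm, was at 5 or more in 15 of 18 block cells and in 5 of 57 comparison cells. EOMES, a T-box factor needed for mesoderm and endoderm, reached 5 in 14 block cells and 6 comparison cells. The homeobox genes MIXL1 and EVX1, both expressed in the streak, reached 5 in 11 and 13 block cells, against 4 and 3 comparison cells. LHX1, a homeobox gene of the anterior streak and its derivatives, reached 5 in only 4 of 18 block cells. The only comparison cells that reached 5 for LHX1 were E13_MS13T65 (7.90) and E14_MS09T18 (10.59), which had little POU5F1. At least 3 of these 5 markers were at 5 or more in 13 of 18 block cells and in 4 of 57 comparison cells. These cells were proposed as gastrulating, so the counts describe the label and do not test it.

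Cell by cell, T split the block by title code. The 9 E14 cells of code MS13 had T levels of 6.15, 6.80, 6.93, 8.0, 8.60, 8.74, 9.19, 9.19 and 10.50. The E16 cells had 6.14, 6.77, 9.28 and 10.77, and the E17 cells 8.75 and 8.84. The remaining 3 cells, both E13 cells and the E14 cell MS61T65, had T at 0, and they are the 3 block cells of code MS61. Of the 10 E13 comparison cells of the same code, 3 had a T read and none reached 5, and all 10 had EVX1 at 0. Among comparison cells T ranged from 0 to 7.68 at E13 (median 0.83) and from 0 to 9.16 at E14 (median 0.53), so the sides overlapped. Low levels of T were common there: 17 of 29 E14 comparison cells (58.6%, 95% exact binomial interval 38.9 to 76.5) had at least 1 T read, and 10 of 29 after every cell was thinned to 293673 reads. In the block 9 of 10 E14 cells had a T read, both before and after thinning. Intervals cover counting error only.

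EOMES was at 0 in both E13 cells. At E14 it ranged from 3.71 to 9.68 (median 7.32), and the T-negative cell MS61T65 stood within that range at 6.95. The E16 cells had 8.98, 9.26, 9.35 and 9.67, and the E17 cells 7.27 and 7.93. Comparison cells had medians of 0 on both days but reached 8.72 at E13 and 9.35 at E14. MIXL1 varied most among block cells. Its E14 levels were 0, 0.59, 3.39, 3.97, 8.77, 8.92, 8.94, 9.0, 9.97 and 11.28, a low set of 4 cells and a high set of 6. At E13 it was 2.18 and 2.99, at E16 3.92, 8.0, 8.11 and 10.62, and at E17 6.20 and 9.09. EVX1 was the marker found in every block cell: its lowest level was 2.58, in the E17 cell MS11T82, and both E13 cells, without T or EOMES, had 5.86 and 5.89.

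**Figure D1:**
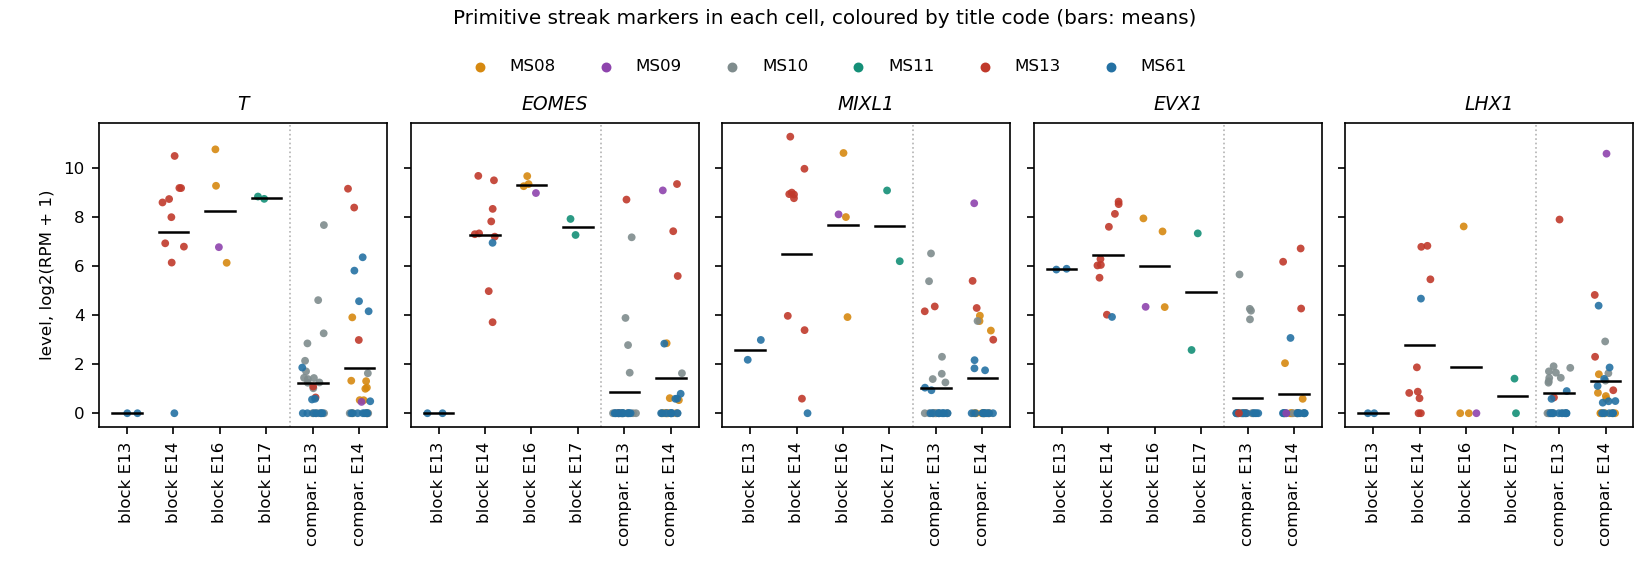
Level of 5 streak markers in each cell (vertical axis, log2(RPM + 1)) by side and embryonic day (horizontal axis); points are cells coloured by title code and bars are means. T is at 0 in the 3 block cells of code MS61, EVX1 is above 2 in all 18 block cells, and among E14 comparison cells the points of code MS13 reach 9.16 for T and 9.35 for EOMES.

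The comparison cells were epiblast by their markers, with exceptions that touch these values. All 8 epiblast markers (DPPA4, GDF3, L1TD1, NANOG, POU5F1, PRDM14, SALL4 and SOX2) had means of at least 3 at E13 and at E14. The cells E13_MS13T65 and E14_MS09T18, which stand apart from the unbroken run of the other 55 in deposit order, had POU5F1 at only 1.09 and 2.96, APOA1 at 10.26 and 6.90, GATA4 at 9.01 and 10.32 and LHX1 at 7.90 and 10.59. Without them 1.04% of genes were called higher and 0.278% lower by the rule given below, in place of 0.912% and 0.226%. The 3 E14 comparison cells of code MS13, MS13T74, MS13T76 and MS13T78, had T at 2.99, 8.39 and 9.16, EOMES at 5.60, 9.35 and 7.43 and EVX1 at 6.18, 4.27 and 6.72. They kept SOX2 at 7.06, 7.76 and 6.44. The comparison cell E13_MS10T55 likewise had T at 7.68, EOMES at 7.18, MIXL1 at 6.52 and EVX1 at 5.66, with SOX2 at 4.04. In E13_MS10T50 SOX2 was at 0, with T at 4.61, EVX1 at 3.83 and EOMES at 2.78. In E13_MS10T34 SOX2 was at 4.57, with MIXL1 at 5.39 and EVX1 at 4.26. E14_MS61T64 and E14_MS61T67 had T at 5.82 and 6.36 but SOX2 at 9.09 and 8.04. Streak RNA was thus present on both sides, and the code-matched comparison at E14 sets cells with streak RNA against other cells with streak RNA.

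Within the block, POU5F1 and NANOG were high in nearly every cell, while SOX2 and PRDM14 were not. POU5F1, the central pluripotency factor, ranged from 10.25 to 11.17 in the 15 cells with T at 5 or more, called T-positive here, and NANOG from 7.51 to 9.57. At E14 the POU5F1 difference was 0.10 and the NANOG difference -0.35, each smaller than the SD of the comparison cells (1.53 and 1.6). Without the comparison cell E14_MS09T18 they were -0.17 and -0.62, with SDs of 0.45 and 0.74. SOX2, a pluripotency factor that is later also a neural gene, ranged from 0 to 7.69 in the T-positive cells. It was at 5 or more in 7 of these 15 and below 2 in 7. All 4 E16 cells were low (0, 0.72, 0.94 and 4.18), against a lowest value of 2.43 and a median of 7.29 among the 17 E16 cells of the later run, which starts at E13_MS10T34 and goes on to E17. The E17 cells had 1.16 and 7.33.

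Among the 9 E14 cells of code MS13, 6 had SOX2 between 5.34 and 7.69, and 3 had almost none: MS13T85 (0), MS13T87 (0) and MS13T90 (0.82). These 3 cells also had the 3 highest EVX1 levels of the 9 (8.53, 8.63 and 8.13). SOX17, an endoderm and germ cell factor, was at 9.13, 9.54 and 6.35 in them and at most 4.27 in the other 6. Vimentin (VIM), the intermediate filament of mesenchymal cells, was at 8.51, 9.75 and 10.49 in them and at most 7.70 in the others. SFRP2, a secreted WNT modulator, was at 1.55, 4.17 and 4.57, below the other 6 (4.98 to 8.19). Beyond these shared levels the 3 cells differed. MS13T85 had GATA6 at 8.97, PRDM1 at 8.01 and MESP1 at 5.57, and it was the only block cell with MESP1, an early mesoderm factor, at 5 or more. PRDM1 also reached 5 in MS13T87 but was under 2 in MS13T90. Of the 5 germ cell markers (PRDM1, SOX17, TFAP2C, NANOS3 and DND1), 4 were at 5 or more in MS13T87, 3 in MS13T85 and 2 in MS13T90. NANOS3 reached 5 in 0 of the 18 block cells. MS13T87 and MS13T90 had HAND1 at 7.33 and 7.25, and MS13T90 alone had the matrix genes COL3A1 at 10.55 and LUM at 9.72, with all 7 extraembryonic mesenchyme markers at 5 or more. The 3 cells were picked out by their SOX2 values, so this is a description of single cells.

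The 3 cells of code MS61 were unlike the others and unlike each other. E13_MS61T45 had TTR at 11.82, SOX17 at 9.21, GATA4 at 7.09, GATA6 at 6.68 and HNF4A at 6.48, 7 of the 9 hypoblast and endoderm markers at 5 or more, with POU5F1 at 4.47 and NANOG at 0.45. Its markers go against a streak label. E13_MS61T54 had POU5F1 at 11.37 with HAND1 at 11.83, WLS at 10.49, TFAP2A at 7.12 and ISL1 at 6.34, genes of amnion and extraembryonic cells as well as of some mesoderm. E14_MS61T65 had EOMES at 6.95, SOX2 at 8.14, SFRP2 at 9.41 and LHX1 at 4.68 with T and MIXL1 at 0. In the 15 T-positive cells APOB was at 0, and TTR, HNF4A and APOA1 did not exceed 0.98, 1.35 and 1.85. Other markers of this list were present in some of them. GATA4 reached 5 in 10 of the 18 block cells, SOX17 in 5, GATA6 in 3 and FOXA2 in 2. Each count includes E13_MS61T45, and the rest are T-positive cells. PDGFRA reached 7.29 among the E14 cells of code MS13. Of the other endoderm genes, APOE was at 4.78 or more in all 15, and AFP reached 6.88 in E16_MS08T58. Other lineage genes did appear in single T-positive cells, such as HAND1, ISL1, TFAP2A and TFAP2C together in MS13T80 (8.07, 6.54, 5.63 and 7.08) and GATA6 in MS13T82 (8.35). 

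**Figure D2:**
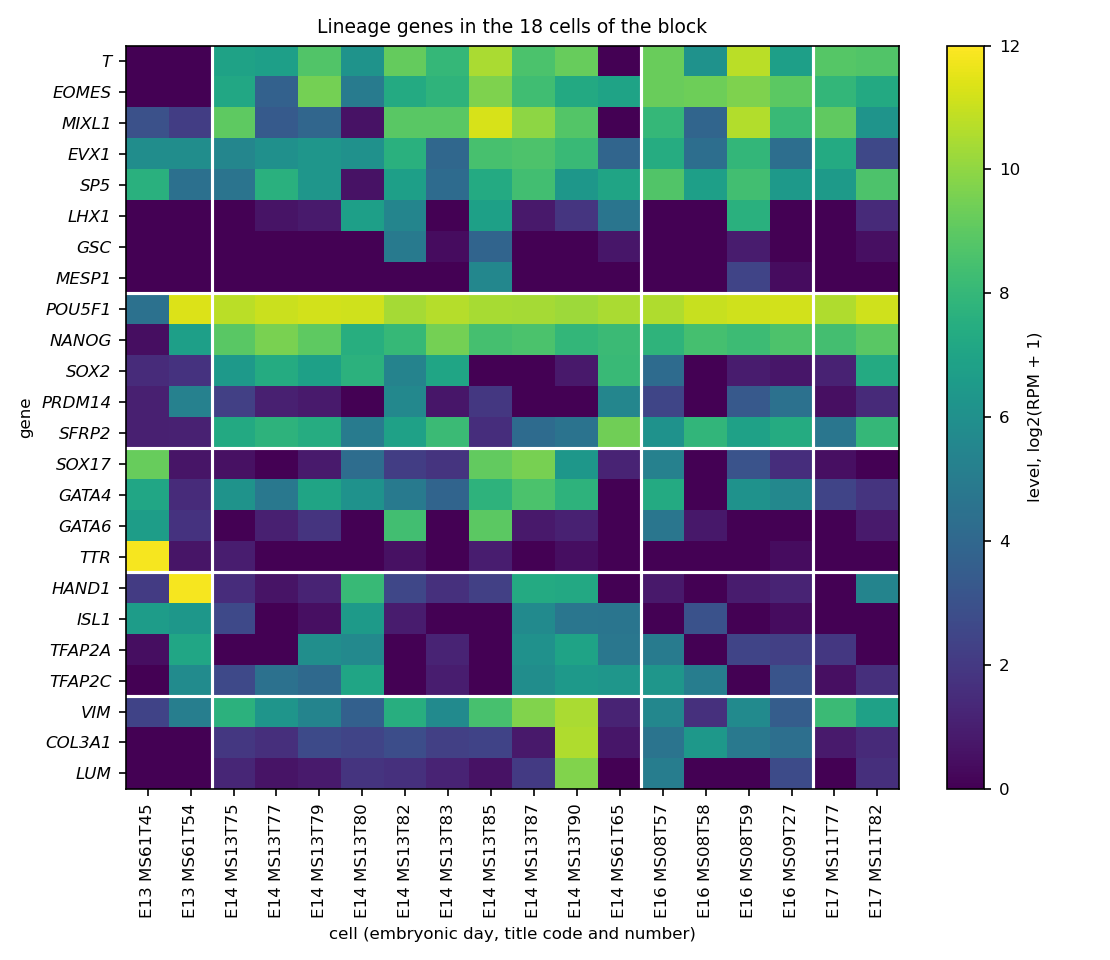
Levels of 24 lineage genes (rows) in the 18 block cells (columns, in deposit order), in log2(RPM + 1); white lines separate embryonic days and gene groups. POU5F1 is above 10 in every cell but E13 MS61T45, T is at 0 in the 3 MS61 cells, and SOX2 is below 1 in MS13T85, MS13T87 and MS13T90 and in 3 of the 4 E16 cells.

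Across genes, 11510 genes had an average E14 level of at least 1 and were compared. A gene was called when the E14 difference was at least 2 and the means of all 4 block days lay beyond the means of both comparison days. By this rule 0.912% of the 11510 genes were higher and 0.226%, or 26 genes, lower in the block. After quantile normalization across cells the called shares were 0.678% and 0.339%, or 78 and 39 genes, so that fewer of the calls were higher. The E14 difference alone was at least 2 upward for 2.59% of genes and downward for 0.565%, or 65 genes. The median difference over all compared genes was 0.16 at E14. No called gene separated the 10 block cells of E14 from the 29 comparison cells completely. Without the 3 MS61 cells, which removes the E13 block cells, 160 of 11506 genes (1.39%) were called higher and 38 (0.330%) lower, and T and EOMES joined the higher genes. That alternative was chosen after the values had been seen. Of the genes called higher, 72 (68.6% of them) differed by at least 1 the same way among E14 cells of code MS13, 57 (54.3%) at E16 and 62 (59%) at E17 against same-day cells of the later run. For the 26 lower genes these counts were 21, 17 and 20. Over all compared genes the shares were 19.6%, 13.9% and 19.9% upward and 13.3%, 10.8% and 17.5% downward. These differences share block cells or block day means with the rule, which raises the called genes' shares by construction.

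**Figure D3:**
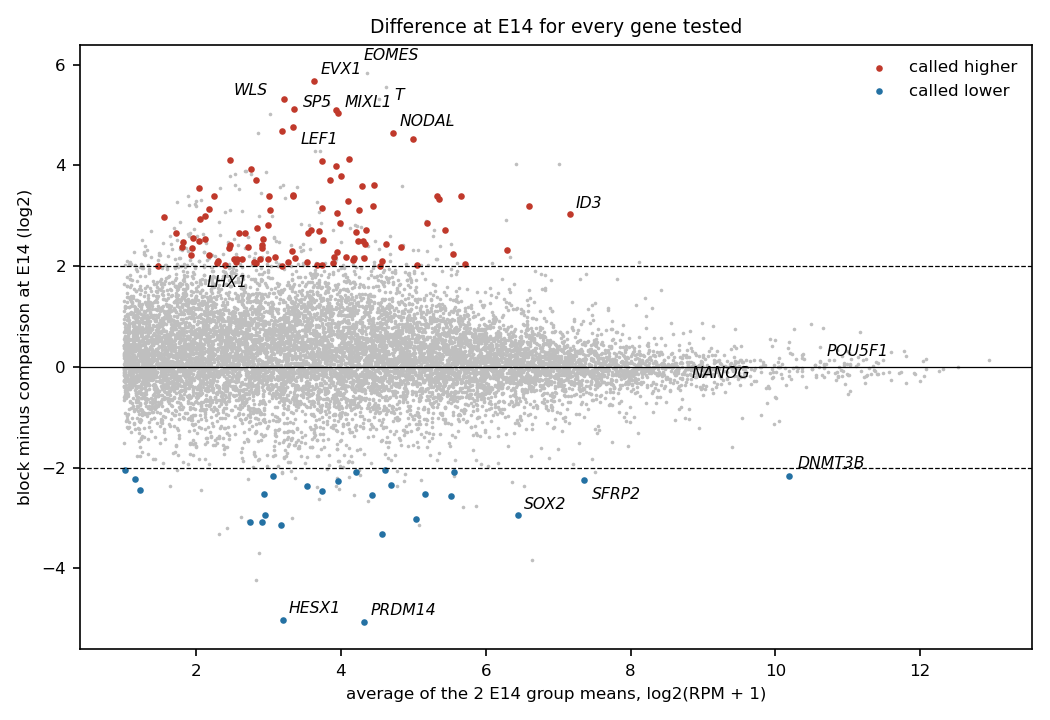
Difference between block and comparison cells at E14 (vertical axis, log2) against the average of both E14 means (horizontal axis, log2(RPM + 1)) for the 11510 genes compared; dashed lines mark a difference of 2. Red points are the genes called higher (0.912%) and blue points the 26 called lower; T and EOMES are grey because the E13 block cells have neither.

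Of the regulators of the streak and early mesoderm, 4 of 17 compared genes were called higher (EVX1, MIXL1, SP5 and CDX2) and none lower. Over all 11510 compared genes 0.912% were called higher and 0.226% lower. At E14 alone 11 of the 17 were higher by at least 2, against 2.59% of all compared genes, and the median of the list was 2.67. Without the MS61 cells, 6 were called higher, where 1.39% of all compared genes were. EVX1 had the largest E14 difference of the 14 called genes named as higher, 5.69, from a mean of 6.47 ± 1.72 (SD over 10 cells) in the block against 0.79 ± 1.87 (SD over 29 cells). All 10 block cells lay above the comparison median of 0, and the comparison cells reached 6.72. Its difference was 5.24 at E13, 5.34 at E16 and 4.59 at E17, and 1.03 among E14 cells of code MS13. MIXL1 differed by 5.04 at E14, 1.55 at E13, 6.35 at E16, 5.10 at E17 and 2.97 within MS13. T and EOMES, with differences of 5.56 and 5.84 at E14, 7.51 and 7.4 at E16 and 6.91 and 4.09 at E17, were not called because their E13 differences were -1.24 and -0.86. Within MS13 at E14 T differed by 1.39, EOMES by -0.14 and the called gene CDX2 by -1.16. LHX1 differed by 1.47 at E14, -0.81 at E13, 1.12 at E16 and -0.50 at E17. GSC and MESP1, later markers of anterior streak and mesoderm, stayed below 2 in 16 of 18 block cells each.

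Genes of the WNT pathway, which drives streak formation, differed in both directions. Of 22 compared genes 5 were called higher (FZD10, LEF1, AXIN2, SP5 and NKD1) and 1 lower (SFRP2), with a list median of 0.47. The shares over all compared genes were 0.912% and 0.226%. The higher genes include targets and feedback genes of the pathway. LEF1, a nuclear effector and target, had a lowest E14 block level of 2.53, a median of 5.74 and a highest of 7.81, against a comparison median of 0, and differed by 4.76. SP5, a transcription factor gene switched on by WNT, differed by 5.11. AXIN2, the feedback inhibitor often used as a readout of the pathway, differed by 3.39 and was at 5.23 or more in every T-positive cell. WLS, the carrier that brings WNT ligands to the cell surface and a gene outside the list, was higher by 5.32 at E14, by 3.16 at E16 and by 4.87 at E17. Its E14 levels ran from 1.2 to 8.68 (median 6.44) in the block, and the comparison cells had a median of 0 and a highest value of 5.65. At E14 alone 9 of the 22 were higher by at least 2 and 4 lower, against 2.59% and 0.565% of all compared genes. The higher ones that did not meet the rule on all days were WNT5A, WNT5B, DKK1 and RNF43. The lower ones were SFRP1 (-3.83), FZD7 (-3.15), TCF7L1 (-2.30) and SFRP2 (-2.25), of which only SFRP2 met the rule on all days. The 2 SFRP genes encode secreted WNT modulators, FZD7 a receptor, and TCF7L1 a repressor of WNT targets in pluripotent cells. Within MS13 the LEF1 difference was 0.71 and the AXIN2 difference 1.65, while WLS differed by 4.50 and NKD1 was lower, by -2.50.

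In the BMP pathway 4 of 16 compared genes were called higher (SMAD1, ID2, ID3 and TWSG1) and none lower, with a list median of 1.5. Of all compared genes, 0.912% were called higher and 0.226% lower. SMAD1 was not called without the MS61 cells. ID2 and ID3 are direct targets of BMP signalling. ID3 ran from 6.04 to 11.01 (median 8.73) in the E14 block cells and from 0 to 10.53 (median 5.85) in the comparison cells, a difference of 3.03. The E16 block cells were all high, with a mean of 10.83. Within MS13 ID3 differed by -1.30 and ID2 by -0.09, against 3.22 for SMAD1, which carries the BMP signal to the nucleus, and 1.97 for TWSG1, a secreted binding partner of BMPs. The ligand gene BMP4 was higher by 2.48 at E14 and lower by 2.48 at E17. Of the NODAL pathway, only NODAL itself among 15 compared genes was called. At E14 alone 4 of the 15 were higher by at least 2 (NODAL, CFC1, SMAD3 and FST), against 2.59% of all compared genes. NODAL had a lowest E14 level of 0.72, in MS61T65, a median of 7.26 and a highest of 9.6, against a comparison median of 1.00 and a highest of 10.77. The difference was 4.65 at E14, 4.50 at E16, 3.08 at E17 and 2.79 within MS13. LEFTY2, a NODAL target and inhibitor, differed by 0.12. In the FGF and ERK list FGF17 was called higher, by 2.01, 1 of 17 compared genes, while SPRY1 (-3.70) and DUSP6 (-2.07), feedback genes of ERK signalling, were lower at E14 without being called. At E16 both were higher, by 2.05 and 3.87.

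Of the adhesion and epithelial to mesenchymal transition genes, 3 of 22 compared were called higher (CDH2, VIM and MMP2) and none lower, with a list median of 1.05. The share called higher over all compared genes was 0.912%. N-cadherin (CDH2) was higher by 2.72 at E14, 2.56 at E16 and 2.83 at E17, but E-cadherin (CDH1) differed by 0.98, -0.73 and -0.81, and its lowest value in a T-positive cell was 3.82. MMP2, a matrix metalloprotease, was at 6.14 or more in all T-positive cells and higher by 3.20 at E14 and by 4.24 within MS13. VIM was higher by 2.86 at E14 and by 3.83 at E17 but lower by 1.64 at E16. SNAI2, a repressor of epithelial genes, differed by 0.65, with 4 of 10 block cells above 0. The matrix genes FN1 (fibronectin) and LAMC1 (a laminin chain) were higher by 4.03 and 2.44 at E14 and differed by 0.58 and -0.41 at E16.

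The other genes named by rule among the higher ones were ARRB1, AP3B2, SLC25A24, GPR78, NDRG1, GATA4, SNX10, SMIM3 and NFE2, with E14 differences of 5.10, 4.53, 4.13, 4.10, 3.93, 3.72, 3.62, 3.60 and 3.40. ARRB1, the signalling adaptor beta-arrestin 1, was at 5.04 or more in 16 of the 18 block cells, the exceptions being E14_MS61T65 (2.77) and E16_MS08T58 (0.77). Its comparison median at E14 was 0 and its difference within MS13 was 5.04. AP3B2, a subunit of the AP-3 vesicle adaptor complex, was at 4.08 or more in all 18 and differed by 5.53 within MS13. GPR78, an orphan receptor, had a comparison median of 0 and E14 block levels of 0.88 to 8.10 (median 4.97). The endoderm and heart factor GATA4 had a mean of 5.71 ± 2.50 (SD over 10 cells) against 1.99 ± 2.33 (SD over 29 cells), and differed by 1.45 within MS13.

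The genes called lower and named by rule included pluripotency and anterior neural regulators. PRDM14, a repressor that safeguards pluripotency, was lower by 5.06 at E14: block cells ran from 0 to 5.60 (median 0.96) and comparison cells from 0 to 8.60 (median 7.51). All 10 block cells lay below the comparison median. Its difference was -3.09 at E13, -2.02 at E16, -2.85 at E17 and -2.93 within MS13. HESX1, a homeobox repressor of the anterior neural plate, was lower by 5.02 at E14 and was at 0 in 8 of the 10 E14 block cells, the others being MS13T79 (2.12) and MS13T82 (4.74). SOX2 was lower by 2.94 at E14, 5.80 at E13, 5.70 at E16 and 3.71 at E17. The E13 values rest on 2 block cells with T and EOMES at 0. PRDM14 was at 5 or more in E13_MS61T54 and under 2 in E13_MS61T45, the cell with endoderm markers. Of the 11 core pluripotency genes compared, these 2 (SOX2 and PRDM14) were called lower, against 0.226% of all compared genes, and none higher. SALL4 and LIN28A differed by -0.07 and -0.02. Of 17 genes of postimplantation pluripotency, SFRP2 and DNMT3B were called lower. DNMT3B, the de novo DNA methyltransferase of the epiblast, had E14 block levels of 6.93 to 10.69 (median 9.46) against 6.99 to 11.92 (median 11.46), a difference of -2.17, and it was lower in each of the 6 comparisons within a day and a code. Of 8 neural and ectoderm genes, SOX2, HESX1 and SOX21 were called lower, and SOX21 was at 0 in all 10 E14 block cells. The remaining named genes were PGM2L1 (-3.32), a sugar phosphate enzyme, the scaffold protein gene IQGAP2 (-3.08), the lysosomal ribonuclease RNASET2 (-3.03), NELL2 (-2.56), a secreted glycoprotein, the WNT regulator DACT1 (-2.55), the zinc finger gene ZNF462 (-2.53), the zinc importer SLC39A10 (-2.35) and the endosomal protein gene NSG1 (-2.26).

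The day and the title code could be matched in 6 comparisons, of 1 to 9 block cells against 3 to 13 other cells each. The rule for named genes had used the E13 and the E14 MS13 pair, and the calls all block days, so the counts describe the named genes and test nothing. In the 4 pairs the naming rule did not use, 7 of the 14 named higher genes were higher in all (EVX1, WLS, SP5, ARRB1, AP3B2, GPR78 and NDRG1), against 8.64% of all compared genes. Of the 12 named lower genes, 5 were lower in all 4 (PRDM14, HESX1, RNASET2, SOX2 and SLC39A10), against 5.76% of all compared genes. Over all called genes, from which the named genes were taken, the shares were 37.1% of those called higher and 42.3% of those called lower. The named genes had 50% and 41.7%. EVX1 differed by 1.03 to 5.88 over the 6 and SOX2 by -6.90 to -0.42. Among other called genes, LEF1, AXIN2, CDH2 and SMAD1 were higher in all 6, FOS in 5, CDX2 and HOXA2 in 3, and VIM and NKD1 in 2. T was higher in 4 of 6, with 8.03 at E16 within MS08 and -1.78 for the single E14 cell of MS61. EOMES ranged from -0.26 within MS11 at E17 to 8.62 within MS09 at E16. Within E14 code MS13, where the 3 comparison cells themselves carried EOMES and T, EVX1 and SP5 had their smallest differences (1.03 and 1.26).

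**Figure D4:**
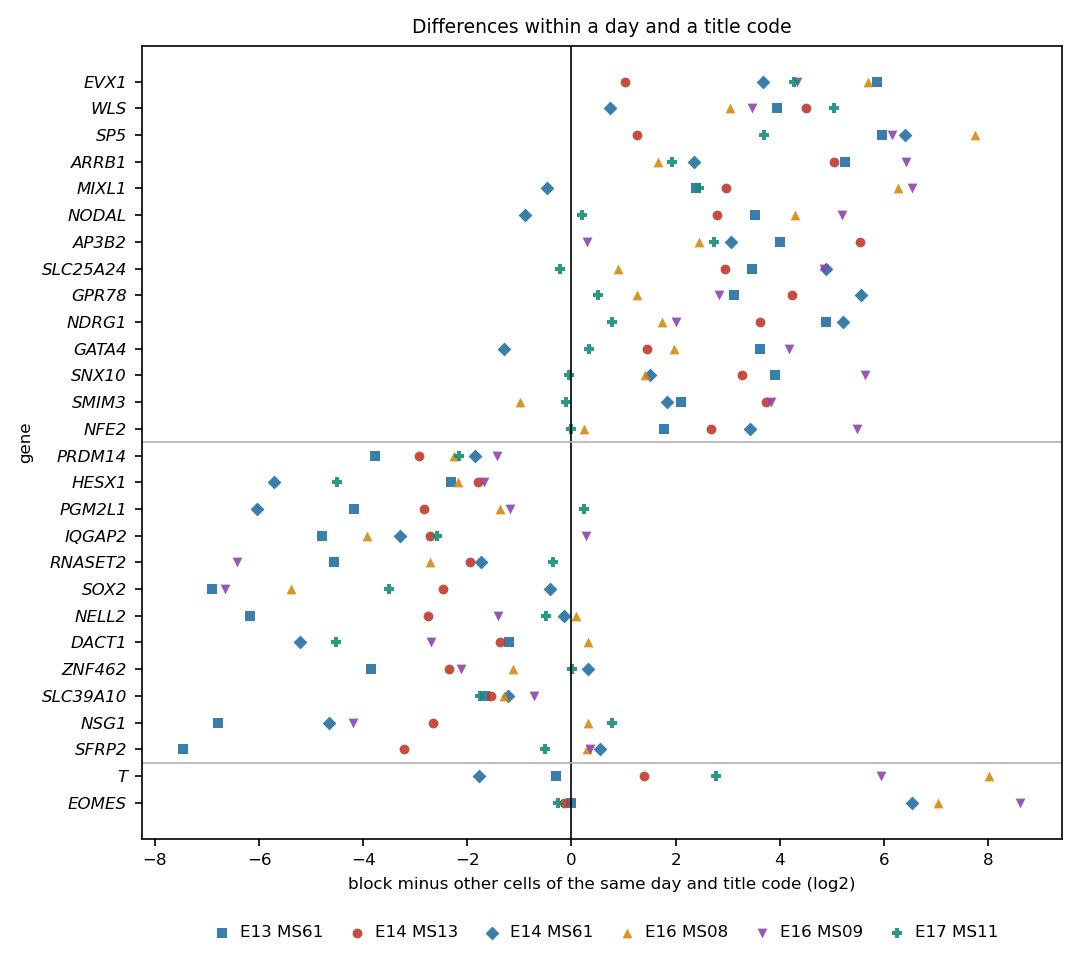
Block minus other cells of the same day and title code (horizontal axis, log2) for the 26 named genes, T and EOMES (rows); each symbol is 1 of 6 day and code pairs. EVX1, WLS, SP5, ARRB1, AP3B2, GPR78 and NDRG1 lie to the right of 0 in all 6, and PRDM14, HESX1, RNASET2, SOX2 and SLC39A10 to the left.

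Some genes of neighbouring tissues were called as well, where 0.912% of all compared genes were called higher and 0.226% lower. A single call in lists this short carries little weight. Of 11 amnion genes, GATA3 and TFAP2A were called higher and KRT7 lower, with a list median of 1.73. Of 10 definitive endoderm genes and 10 hypoblast genes, GATA4 alone was called, with list medians of 0.96 and 0.63, and of 13 extraembryonic mesenchyme genes VIM and GATA4, with a median of 1.52. Of 10 trophectoderm genes CDX2, GATA3 and TFAP2A were called higher and KRT7 lower, with a median of 2.14, and of 11 germ cell genes TFAP2A higher. CDX2, GATA3 and TFAP2A are shared between trophectoderm, amnion and other early tissues. GATA3 was not called without the MS61 cells. The summed level of the 7 mesenchyme markers ran from 63.4 to 5185 RPM in the E14 block cells (median 262.6) and from 8.69 to 965 in the comparison cells (median 236.8). For the 9 endoderm markers it ran from 1.94 to 1284 RPM (median 111.7) against 0 to 1775 (median 4.26), for the 4 amnion markers from 0 to 156.6 (median 56.5) against 0 to 129.1 (median 10.3), and for the 6 trophectoderm markers from 26.3 to 845 (median 183.8) against 15.6 to 295.9 (median 79.2). For the 5 germ cell markers it ran from 45.6 to 926.6 RPM (median 108.9), highest in MS13T87, against 22.6 to 223.5 (median 73.1). The part of these tissues in the differences was not tested. No gene of the lists for the cell cycle (23 compared), glycolysis (19), oxidative phosphorylation (18) or apoptosis (12) was called in either direction. With 0.912% and 0.226% of all compared genes called, lists of this size can lack a call by those shares alone. Their median differences were 0.25, -0.34, -0.11 and -0.23. FOS was the only called gene of 12 stress and immediate early genes, higher by 2.65 at E14 and lower within MS13, with a difference of -1.06.

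On E16 and E17 the block could also be set beside the 9 E16 and 17 E17 cells that come next in deposit order, which carry streak RNA as well. They were pooled, although the day falls from E17 back to E16 within them. Most of these E17 cells have the code MS10 and 166742 to 848040 reads. Both E17 block cells have the code MS11, with 2409943 and 2431993 reads. The part of code and depth was not tested. EOMES and MIXL1 had like medians: at E16 the EOMES medians were 9.31 in the block and 8.0 in the next cells, and the MIXL1 medians 8.06 and 8.15. T was higher in the block at E16, with a median of 8.03 against 3.86, as was EVX1 with 5.88 against 3.41. NANOG stayed high in the block, at 7.83 to 8.64 at E16 and 8.42 to 8.95 at E17, against medians of 2.22 and 3.39 in the next cells. NODAL had E16 medians of 6.24 and 0.94. Some genes were lower in the block: GATA6, an endoderm and mesoderm factor, had medians of 0.39 in the block and 8.62 in the next cells at E16, and LHX1 0 and 9.11. Others were not, or on 1 day only: SOX17 had medians of 2.30 and 2.51 at E16. MESP1 had 0.20 and 5.38 at E16 but 0 and 0 at E17. CER1, a secreted NODAL and BMP inhibitor of anterior streak and endoderm, had E17 medians of 1.15 and 8.80, and GSC 0.25 and 5.04. The highest GATA6 values of the block were 4.70 at E16 and 0.87 at E17, and the lowest of the next cells 7.08 and 4.39. How many of all genes lie apart in this way was not counted, and the block holds only 4 and 2 cells on these days. For T and EVX1 the block and the next cells overlapped. SOX2 was low on both sides at E16, with medians of 0.83 and 1.51. No test was made, since these groups follow the deposit order too.

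**Figure D5:**
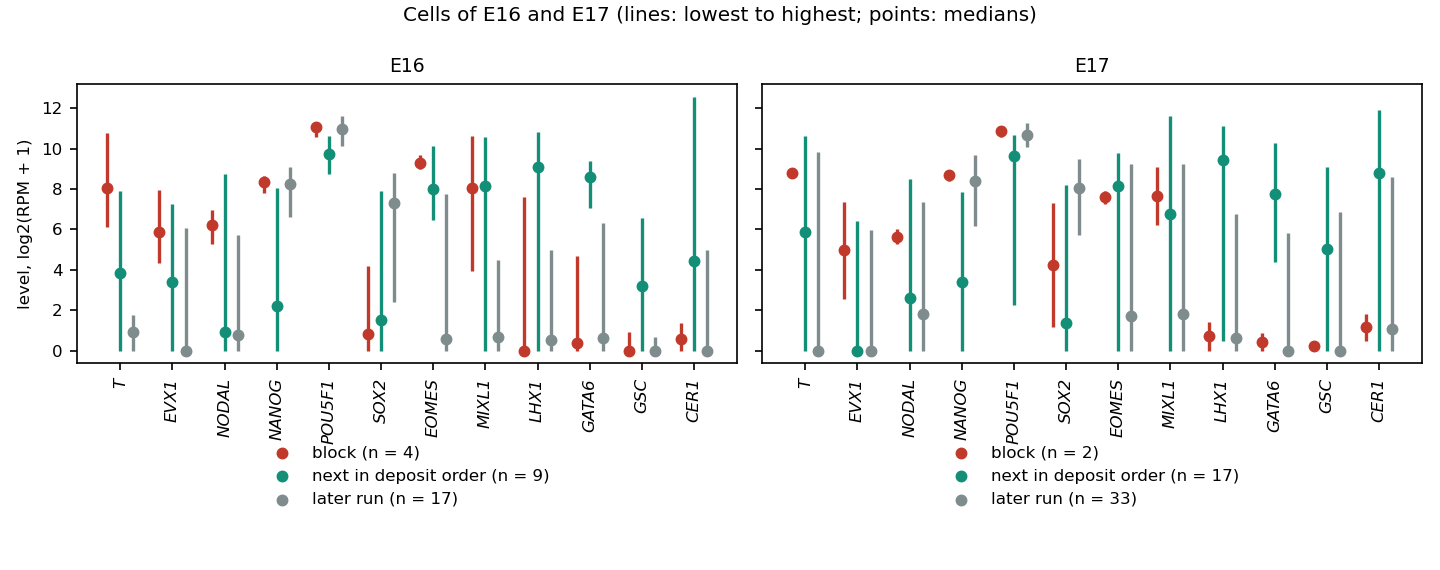
Levels of 12 genes (vertical axis, log2(RPM + 1)) at E16 (left) and E17 (right) in the block, in the cells next in deposit order and in same-day cells of the later run; points are medians and lines run from the lowest to the highest cell. NANOG of the block lies at 7.83 to 8.95, near the later run, while its T and EOMES medians lie above 7.5. GATA6 of the block reaches 4.70 at E16 and 0.87 at E17.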

How the data were processed

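Of 492 samples in the series, SC3-seq values of 421 monkey cells were used as deposited by the authors, in RPM per gene and cell. Per the file headers the genes refer to the build macFas5. The submitters' processing notes name cutadapt 1.3, TopHat 1.4.1 and Cufflinks 2.2.0, with no role given. Of 29095 genes, 298 held no value and 28797 were used. Of 14758 LOC names, 3296 were given a symbol by gene ID from the RefSeq table of assembly T2T-MFA8v1.1. Reads were recovered as RPM over the most common value above 0.02 RPM in a cell, and in each cell at least 99.76% of its values below 500 reads were whole to within 0.1. No cell was removed, and no doublet caller was run, since cells were picked singly. The highest correlation between 2 cells was 0.893. Means of log2(RPM + 1) were compared by size, with no test. Day sums were fitted with edgeR 4.0.16 as an alternative. The size rule and edgeR were tested on simulated data. The rule called 105 genes higher and 26 lower, and 298 and 65 at E14 alone. The genes named are those with the 15 largest positive and 12 largest negative E14 differences among called genes with the same direction and a size of at least 1 at E13 and within MS13, the 5 markers, and up to 4 or the defining members of each of 28 gene lists. Of the 15, 14 are named, since some genes are not reported here. The members and lists were chosen with earlier results of these data known.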

Additional observations from a re-analysis of the deposited data

Results flagged for a closer look

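In groups of 10 E14 or 4 E16 block cells, a single cell stood apart from the others by more than Dixon's 95% critical value in 6 of 58 gene and day groups. For normally distributed values about 1 in 20 groups would be marked. Many levels here are 0, so that rate does not hold and the count is a description only. Among E14 cells, NODAL was lowest at 0.72 in MS61T65 (next cell 6.63) and T was lowest at 0 in the same cell (next cell 6.15). HESX1 was highest at 4.74 in MS13T82 (next cell 2.12). Among E16 cells, MS08T58 was the lowest for ARRB1 (0.77, next cell 6.93) and NDRG1 (0, next cell 3.48). LHX1 was highest at 7.62 in MS08T59, with the other 3 E16 cells at 0.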

How the results depend on the processing

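The share of compared genes called, 0.912% higher and 0.226% lower, depends on how low levels are weighed and on the size asked for. It became 0.182% and 0.0521% with a pseudocount of 10, 2.35% and 0.573% with 0.1, 2.14% and 0.660% with medians over cells, 3.59% and 1.26% with a size of 1, 0.313% and 0.0608% with a size of 3, and 2.59% and 0.565% with no condition on the other days. With log2 of the mean RPM 0.513% were higher. With E14 cells of code MS13 only the shares were 1.52% and 0.660%, and 42.9% of the genes called higher and 42.3% of those called lower were then called again. The E13 difference gave 2.57% and 2.13%, and the average of E13 and E14 gave 1.49% and 0.825%. Without block day E16, 0.356% were lower, and without code MS61, 1.39% were higher. Leaving out 1 E14 block cell gave 0.887% to 0.991% higher and 0.216% to 0.313% lower. edgeR's quasi-likelihood test on reads summed per day, 4 block days against 2 comparison days, called 0% in either direction at an adjusted p of 0.05, with 3.0% of genes at an unadjusted p under 0.05, and its p measures the spread between days only.

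Quantile normalization brought the median of all genes from 0.16 to 0.01. Of 609 values of 29 genes under the alternatives, 515 stayed within the SD of their 4 day differences, 87 moved and 7 changed sign. Many of the 515 come from leaving out 1 of the 10 E14 block cells, which moves a mean little. All 29 genes stayed in every such run, so the 515 says little about stability. With the E13 difference 9 of the 29 stayed, with a pseudocount of 10 it was 12, and within MS13 17. Of the 29 genes, 26 were chosen for their direction at E13 and within MS13 and could not change sign there. T was -1.24 at E13. EOMES was -0.14 within MS13 and -0.86 at E13. LHX1 was -0.89 with log2 of the mean RPM, -0.10 within MS13, -0.81 at E13 and -1.66 with edgeR.

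The percent of E14 cells with at least 1 read was 90 for T in the block, 90 for MIXL1 and 100 for EOMES, and within MS13 T and MIXL1 reached 100. In comparison cells T had 58.6 (34.5 after thinning, 100 within MS13), MIXL1 37.9 (100 within MS13) and EOMES 41.4 (20.7 after thinning, 100 within MS13), where MS13 holds 3 cells. No paired analysis was possible because replicate numbers here only name cells, and the labels name no animals; matching was by day and title code, whose meaning is not stated, and without a test. Few cells and unknown embryos limit every value: E13 and E17 hold 2 block cells each.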

Other observations

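At E14, 4 of 10 compared HOX genes were higher by at least 2 (HOXA2, HOXB1, HOXB6 and HOXD1), against 2.59% of all compared genes. HOXA2 alone met the rule on all days, as did 0.912% of all compared genes. Within MS13 HOXA2 differed by -0.16. The E14 block cells are nearly all of code MS13 and the E16 cells of MS08 and MS09, so day and code cannot be told apart in the following values. HOXB1, an early HOX gene, was at 4.54 or more in 4 of the 10 E14 block cells and at 0 in all 29 E14 comparison cells and all 4 E16 block cells. HOXA2 had block means of 4.68 at E14 and 1.54 at E16, and HOXD1 4.35 and 1.99. CDX1, a caudal homeobox gene, had a mean of 6.43 at E14 and 2.31 at E16, and differed by -0.45 within MS13 at E14, where the 3 comparison cells had 4.97, 8.16 and 8.27.

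The retinoid binding proteins CRABP1 and CRABP2 were higher at E14 by 3.84 and 2.08. None of 7 compared retinoic acid genes was called; the E13 differences of this pair were -0.21 and -1.94, and both were called without the MS61 cells. CRABP2 was at 7.84 or more in all 10 E14 block cells, against a comparison range of 4.46 to 8.95. FST, a secreted activin antagonist, was at 6.26 to 8.51 in the E14 block cells against 0 to 8.95. ACTC1, the cardiac actin gene, was at 2.66 to 8.33 against a comparison median of 0.63.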
